A study of Mus musculus with 203 samples.

Results

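The genes of the colony-stimulating factor receptors and of the ligand Csf1 were examined in the RNA-seq of RAW264.7 cells, a mouse macrophage line. Members were taken by gene symbol and are Csf1r, Csf1, Csf2ra, Csf2rb, Csf2rb2 and Csf3r. All 6 were found among 25094 listed genes, and all 6 were among the 12905 genes that passed the filter on low values (4 or more libraries with a log2 value of 1 or higher). The 6 genes are also listed among 16478 genes of a bone marrow-derived macrophage experiment, whose table holds the authors' own comparisons and no values per library, so it was not used here.

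The RAW cells carried a lentiviral short hairpin, directed at Kdm1a (shKDM1A) or, as the control line, at GFP (shGFP), and were left untreated (control) or given 20 ng/ml of IL4 for 6 h. Each of the 4 groups had 4 libraries. All groups share the RAW264.7 background, labelled BALB/c, a lentiviral vector, puromycin selection and serum-containing DMEM, and each knockdown rests on stably selected cells with 1 hairpin. The comparisons address how IL4 and the loss of KDM1A, a histone lysine demethylase, change macrophage gene expression. In bulk RNA, fewer cells of a type and less RNA per cell cannot be told apart.

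Colony-stimulating factors are cytokines that sustain and instruct myeloid cells. Csf1r encodes the tyrosine kinase receptor through which CSF1 (M-CSF) and IL34 keep macrophages alive and proliferating. The GM-CSF receptor pairs a ligand-binding alpha chain, encoded by Csf2ra, with the common beta chain, encoded by Csf2rb, which also serves the IL3 and IL5 receptors and passes the signal to JAK2 and STAT5. Csf2rb2 encodes a second beta chain, found in mice, that serves the IL3 receptor. Csf3r encodes the receptor of G-CSF, best known in the neutrophil lineage.

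In the mm9 coordinates of the deposited table, Csf1 spans chr3:107543966-107563387 (-), Csf2ra chr19:61300305-61304321 (-) and Csf3r chr4:125701903-125722219 (+). Csf2rb2 at chr15:78112938-78136151 (-) and Csf2rb at chr15:78156420-78181431 (+) are neighbours on opposite strands with 20268 bases between them. The values count reads over the exons of each gene on both strands, and no other gene of the GENCODE vM1 annotation overlaps the span of any of the 6.

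Csf2rb and Csf2rb2 are close copies, which bears on how far their values can be read apart. Of 2631 aligned coding bases of their GENCODE vM1 transcripts, 2505 were the same (95.2%). A stretch of 100 bases of the Csf2rb transcript had an exact copy in the Csf2rb2 transcript at 306 of 4665 positions (6.56%), and a stretch of 50 bases at 864 of 4715 (18.3%). The longest shared run was 242 bases. How the authors assigned reads that match both genes is not given in the sources used here, so the split between these genes is uncertain. To show the range, the first of the most alike and the first of the least alike ungapped windows of 120 coding bases are printed 5′ to 3′ on the coding strand, with bases that differ in capitals and positions counted from 1 at the first base of the start codon. The first pair covers coding bases 2083 to 2202 of each gene and has no differing base. The second pair covers coding bases 309 to 428 of Csf2rb and 312 to 431 of Csf2rb2 and differs at 22 bases.
Csf2rb, most alike: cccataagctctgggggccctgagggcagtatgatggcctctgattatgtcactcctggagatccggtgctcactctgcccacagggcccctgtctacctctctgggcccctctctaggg
Csf2rb2, most alike: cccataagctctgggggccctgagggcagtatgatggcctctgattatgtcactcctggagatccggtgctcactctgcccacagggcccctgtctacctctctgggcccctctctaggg
Csf2rb, least alike: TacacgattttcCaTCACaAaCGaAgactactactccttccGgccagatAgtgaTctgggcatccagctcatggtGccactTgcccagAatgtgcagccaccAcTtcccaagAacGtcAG
Csf2rb2, least alike: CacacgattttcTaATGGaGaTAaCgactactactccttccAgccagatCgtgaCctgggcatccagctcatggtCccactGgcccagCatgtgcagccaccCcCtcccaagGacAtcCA

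The members spanned a wide range of expression, led by Csf1r. Levels between genes are given per kb of transcript, as 2 raised to the deposited log2 value and divided by the transcript length, and have no unit of molecules. In shGFP control cells Csf1r was at 8390 ± 54.9 per kb (SD, n = 4), above 98.7% of the tested genes. Csf2ra followed at 987 ± 22.9, Csf2rb at 128 ± 3.72, Csf2rb2 at 40.0 ± 2.23, Csf3r at 21.4 ± 0.615 and Csf1 at 3.49 ± 0.0811 per kb. The order Csf1r, Csf2ra, Csf2rb, Csf2rb2, Csf3r and Csf1 was the same in all 4 groups, and in each group no library of one gene overlapped the libraries of its neighbour in the order. In shGFP control cells the smallest step lay between Csf2rb2 and Csf3r, with a ratio per kb of 1.87 ± 0.147, and in shKDM1A control cells, where that ratio was 3.23 ± 0.0921, between Csf2rb and Csf2rb2, at 2.57 ± 0.138. Low values were pulled together by the moderation of the deposited values, so the level of Csf1, above 7.56% of the tested genes in shGFP control cells, is the least certain.

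**Figure D1:**
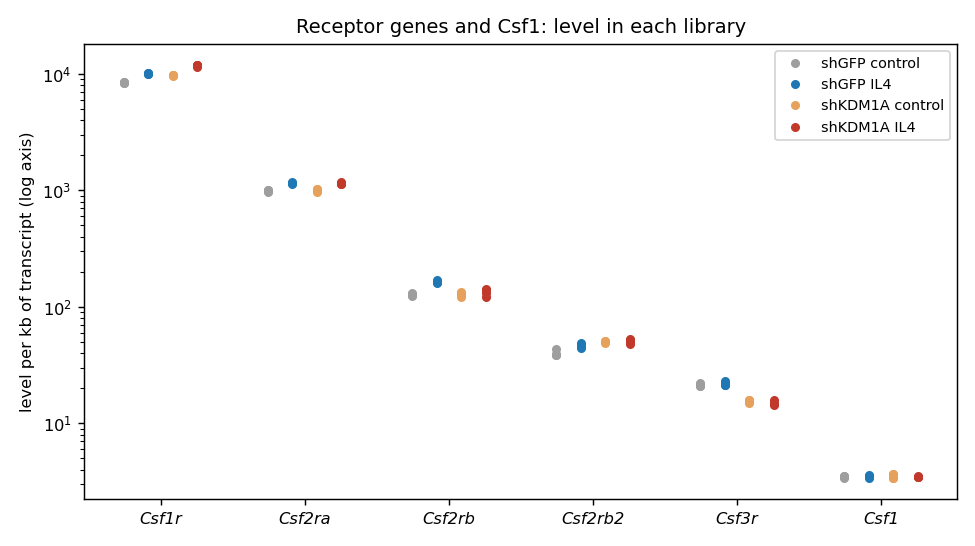
Level per kb of transcript (log axis) of each gene in each library, coloured by group, with genes ordered from high to low. Csf1r sits between 8316 and 11945 per kb and Csf1 between 3.38 and 3.68 per kb, and the libraries of neighbouring genes do not overlap within a group.

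The ligands and partner chains of these receptors were at or under the detection range. Csf1 was the only one of the 6 ligand genes considered (with Csf2, Csf3, Il34, Il3 and Il5) to pass the filter. Il3 was listed at 0 in every library, as were Il3ra and Il5ra, the alpha chains that join the common beta chain in the IL3 and IL5 receptors. Mean log2 values were between -2.27 and -0.97 for Csf2, Csf3, Il34 and Il5 in every group, where the deposited scale marks very few reads.

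Expression of Csf1r, the CSF1 receptor gene at chr18:61265226-61290793 (+) of mm9, was higher after IL4 and higher in shKDM1A cells. The 4 shGFP control libraries had log2 values of 14.98, 14.97, 14.99 and 14.99, and the 4 shGFP IL4 libraries had 15.25, 15.26, 15.23 and 15.23. The shKDM1A control libraries were at 15.19, 15.17, 15.20 and 15.19, and the shKDM1A IL4 libraries at 15.41, 15.49, 15.48 and 15.48. No library of any group overlapped those of another group, and shKDM1A IL4 replicate 1 lay below the other libraries of its group. IL4 raised Csf1r by 0.26 on the log2 scale in shGFP cells (SE 0.019, 1.20-fold, limma adjusted p = 2.3e-08). In shKDM1A cells the rise was 0.28 (SE 0.019, 1.21-fold, limma adjusted p = 1.2e-08), or 0.17 after quantile normalization. The 2 IL4 effects differed by 0.02 (95% interval -0.04 to 0.07, limma adjusted p = 0.78), while after quantile normalization they differed by -0.16 with an adjusted p of 0.0082.

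Knockdown cells had 1.16-fold higher Csf1r than shGFP cells without IL4 (log2 difference 0.21, SE 0.019, limma adjusted p = 2.3e-07). With IL4 the difference was 0.22 (SE 0.019, 1.17-fold, limma adjusted p = 9.7e-08), but it was -0.0071 (adjusted p = 0.84) after quantile normalization. With shKDM1A IL4 replicate 1 left out, the difference with IL4 was 0.24.

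The ligand gene Csf1 was not called in any comparison. Its values were 3.84, 3.89, 3.82 and 3.89 in shGFP control, 3.91, 3.86, 3.82 and 3.89 in shGFP IL4, 3.94, 3.82, 3.82 and 3.93 in shKDM1A control, and 3.86, 3.86, 3.87 and 3.87 in shKDM1A IL4 libraries. The groups overlapped throughout. The 95% interval of the IL4 effect in shGFP cells was -0.05 to 0.07 and that of the knockdown effect without IL4 -0.05 to 0.08, on a scale that understates changes of genes with few reads.

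Csf2ra, the alpha chain of the GM-CSF receptor, was higher after IL4 in both lines. Its values were 10.85, 10.85, 10.78 and 10.81 in shGFP control and 11.06, 11.05, 11.07 and 11.03 in shGFP IL4 libraries. In shKDM1A cells they were 10.89, 10.87, 10.79 and 10.81 without IL4 and 11.03, 11.06, 11.05 and 11.01 with IL4. The control and IL4 libraries of each line did not overlap, whereas the 2 lines overlapped at either condition. IL4 raised Csf2ra by 0.23 in shGFP cells (SE 0.024, 1.17-fold, limma adjusted p = 2.1e-06) and by 0.20 in shKDM1A cells (SE 0.024, 1.15-fold, limma adjusted p = 9.7e-06). The difference between these effects had a 95% interval of -0.10 to 0.05 (limma adjusted p = 0.69). Knockdown effects on Csf2ra were not called, with 95% intervals of -0.04 to 0.07 without IL4 and -0.06 to 0.04 with IL4.

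Csf2rb, the common beta chain, was the only member with a called difference of its IL4 effects between the lines. Csf2rb2 came near the threshold, and Csf1r passed it after quantile normalization. The shGFP control libraries had values of 9.19, 9.29, 9.26 and 9.24, and all 4 shGFP IL4 libraries were higher, at 9.58, 9.65, 9.60 and 9.60. The shKDM1A control libraries were at 9.27, 9.29, 9.16 and 9.31 and the shKDM1A IL4 libraries at 9.17, 9.40, 9.27 and 9.38, with overlap. IL4 raised Csf2rb by 0.36 in shGFP cells (SE 0.044, 1.28-fold, limma adjusted p = 9.2e-06). In shKDM1A cells the IL4 effect was 0.05 (SE 0.044, 95% interval -0.04 to 0.14, limma adjusted p = 0.45). With 1 library left out it ranged from 0.02 (without shKDM1A control replicate 3 or shKDM1A IL4 replicate 2) to 0.10 (without shKDM1A IL4 replicate 1, limma adjusted p = 0.084), and was called in none of these fits. The difference of the effects was -0.31 (SE 0.062, 95% interval -0.44 to -0.18, limma adjusted p = 0.0078). Without shKDM1A IL4 replicate 1, the lowest library of its group, the difference was -0.27.

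Without IL4 the knockdown effect on Csf2rb was 0.01 (95% interval -0.08 to 0.10, limma adjusted p = 0.87). With IL4, Csf2rb was lower by 0.30 in shKDM1A cells (log2 difference -0.30, SE 0.044, 0.813-fold, limma adjusted p = 4.3e-05), and no shKDM1A IL4 library reached the lowest shGFP IL4 library.

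Csf2rb2, the IL3-specific beta chain, was higher in shKDM1A cells already without IL4. Its values were 7.51, 7.51, 7.54 and 7.68 in shGFP control and 7.70, 7.78, 7.78 and 7.85 in shGFP IL4 libraries, which lay just above. The shKDM1A control libraries were at 7.90, 7.86, 7.90 and 7.89, above every shGFP library, and the shKDM1A IL4 libraries were at 7.82, 7.97, 7.95 and 7.89. IL4 raised Csf2rb2 by 0.22 in shGFP cells (SE 0.041, 1.16-fold, limma adjusted p = 0.00071), while the effect in shKDM1A cells was 0.02 (95% interval -0.07 to 0.10, limma adjusted p = 0.81). The difference of the IL4 effects, -0.20 (SE 0.057, 95% interval -0.32 to -0.08), missed the threshold with a limma adjusted p of 0.052. It passed without shGFP control replicate 4 (adjusted p = 0.015), shGFP IL4 replicate 1 (0.033) or shKDM1A IL4 replicate 2 (0.030), and with a filter on low values of at least 5 (0.043).

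The knockdown effect on Csf2rb2 was 0.33 without IL4 (SE 0.041, 1.26-fold, limma adjusted p = 6.8e-06). With IL4 it was 0.13 (SE 0.041, 1.09-fold, limma adjusted p = 0.017), with overlapping libraries. This call was lost without shGFP IL4 replicate 1 (adjusted p = 0.063), shKDM1A IL4 replicate 2 (0.055) or shKDM1A IL4 replicate 3 (0.050), and an exact two-sided permutation test over the 8 libraries gave p = 0.057, where 0.029 is the smallest it can give.

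Because the split of reads between the beta chain genes is uncertain, their levels were also summed. The summed level of Csf2rb and Csf2rb2 was between 162 and 171 per kb in shGFP control libraries and between 205 and 215 in shGFP IL4 libraries. It was between 171 and 184 in shKDM1A control and between 169 and 196 in shKDM1A IL4 libraries. The sum in shGFP IL4 cells thus stood above every other library. The ratio of Csf2rb to Csf2rb2 per kb was 3.20 ± 0.200 in shGFP control, 3.54 ± 0.147 in shGFP IL4, 2.57 ± 0.138 in shKDM1A control and 2.63 ± 0.132 in shKDM1A IL4 cells (SD, n = 4). Every shKDM1A library had a lower ratio than every shGFP library, the nearest being 2.79 and 2.93.

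**Figure D2:**
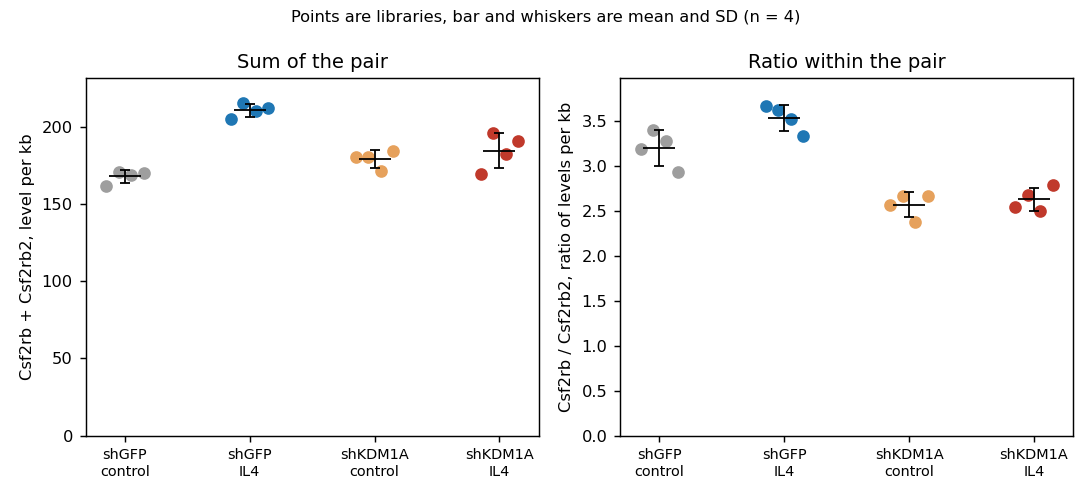
Sum (left, level per kb of transcript) and ratio (right) of Csf2rb and Csf2rb2 in each library, with mean and SD of 4 libraries per group on axes that start at 0. The sum is highest in the 4 shGFP IL4 libraries, from 205 to 215, and the ratio is lower in all 8 shKDM1A libraries than in the 8 shGFP libraries.

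Csf3r, the G-CSF receptor, was lower in shKDM1A cells at either condition and was not called for IL4. The shGFP control libraries had values of 6.43, 6.40, 6.35 and 6.34 and the shGFP IL4 libraries 6.49, 6.39, 6.44 and 6.39. The shKDM1A control libraries were at 5.95, 5.91, 5.87 and 5.93 and the shKDM1A IL4 libraries at 5.94, 5.84, 5.81 and 5.87. All 8 shKDM1A libraries lay below all 8 shGFP libraries. The knockdown effect was -0.46 without IL4 (SE 0.032, 0.726-fold, limma adjusted p = 5.6e-09) and -0.56 with IL4 (SE 0.032, 0.678-fold, limma adjusted p = 5.2e-10). IL4 effects were 0.05 in shGFP (95% interval -0.02 to 0.11, limma adjusted p = 0.33) and -0.05 in shKDM1A cells (95% interval -0.12 to 0.01, limma adjusted p = 0.25). The difference of the 2 IL4 effects was -0.10 (limma adjusted p = 0.20).

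**Figure D3:**
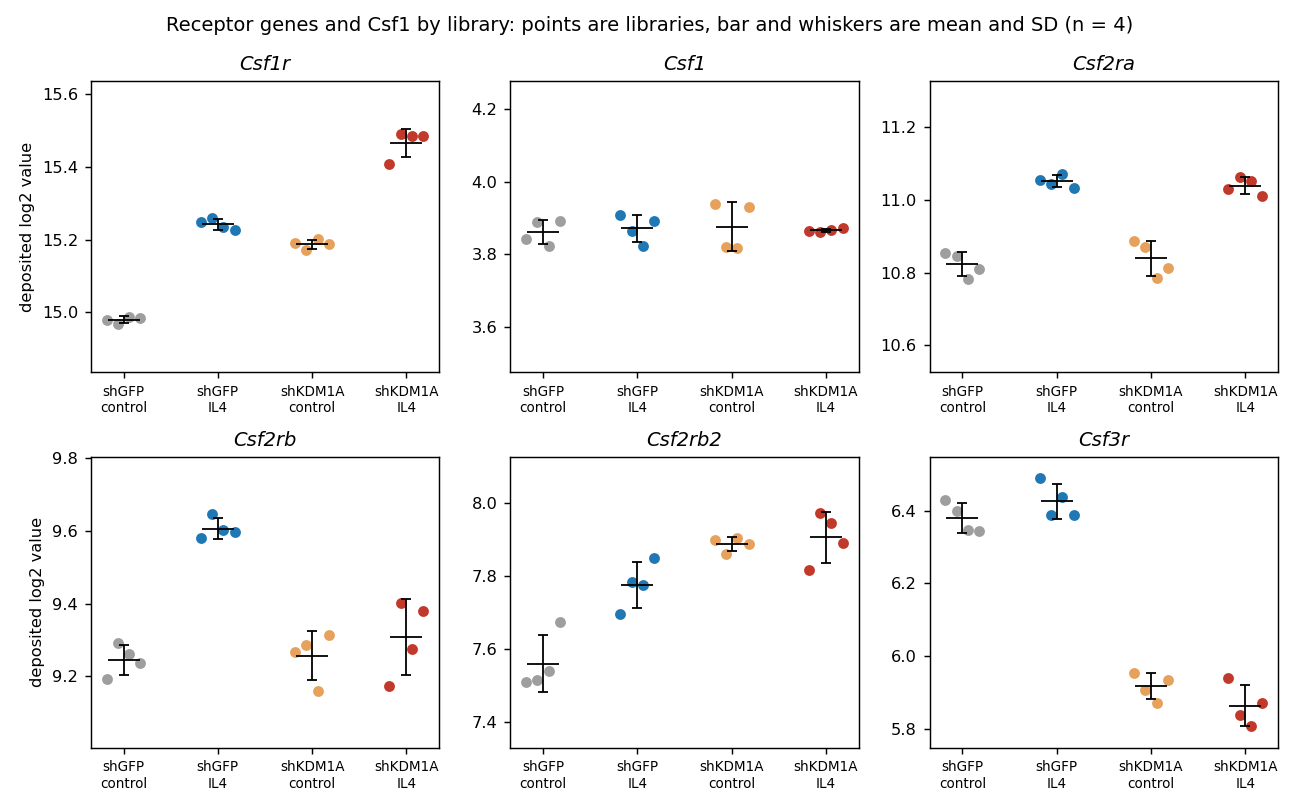
Deposited log2 value of each gene in each library (points), with the mean and SD of 4 libraries (bar and whiskers). Panels share the scale unit but not the range. Csf3r is between 5.81 and 5.95 in shKDM1A and between 6.34 and 6.49 in shGFP libraries, and Csf2rb is at 9.58 or above in the shGFP IL4 libraries alone.

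Counted over the members, IL4 raised 4 of 6 in shGFP cells (Csf1r, Csf2ra, Csf2rb and Csf2rb2), where 13.1% of the tested genes were called higher and 26.9% called in either direction. In shKDM1A cells IL4 raised 2 of 6 (Csf1r and Csf2ra), beside 13.6% of the tested genes called higher and 27.1% in either direction. The knockdown without IL4 raised Csf1r and Csf2rb2 and lowered Csf3r, 3 of 6, where 38.2% of the tested genes were called, 19.7% higher and 18.4% lower. With IL4 the knockdown called 4 of 6, with Csf1r and Csf2rb2 higher and Csf2rb and Csf3r lower, beside 40.7% of the tested genes, 20.9% higher and 19.8% lower, and the call of Csf1r did not hold after quantile normalization. The IL4 effects differed between lines in 1 of 6, Csf2rb, where the effect was lower in shKDM1A cells, beside 6.13% of the tested genes, 3.56% higher and 2.57% lower. That count was 2 of 6 under a filter of at least 5, with Csf2rb2, and also after quantile normalization, with Csf1r. Of the members called, Csf3r in the knockdown comparison with IL4 was alone in differing by more than 0.5 on the log2 scale. That limit kept 1.35% of the tested genes for IL4 in shGFP and 1.09% in shKDM1A cells, 2.61% for the knockdown without and 2.47% with IL4, and 0.132% for the difference of the IL4 effects. The median log2 difference of the members was 0.22 for IL4 in shGFP and 0.03 in shKDM1A cells, 0.02 for the knockdown without IL4 and -0.01 with IL4, against medians between -0.0027 and -0.00049 over all tested genes. These comparisons share libraries, since each group enters both an IL4 and a knockdown comparison. Libraries of the groups compared did not overlap for the 4 members that IL4 raised in shGFP cells and the 2 in shKDM1A cells, beside 28.3% and 25.7% of the tested genes. For the knockdown they did not overlap for Csf1r, Csf2rb2 and Csf3r without IL4 and for Csf1r, Csf2rb and Csf3r with IL4, beside 37.4% and 36.4%.

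**Figure D4:**
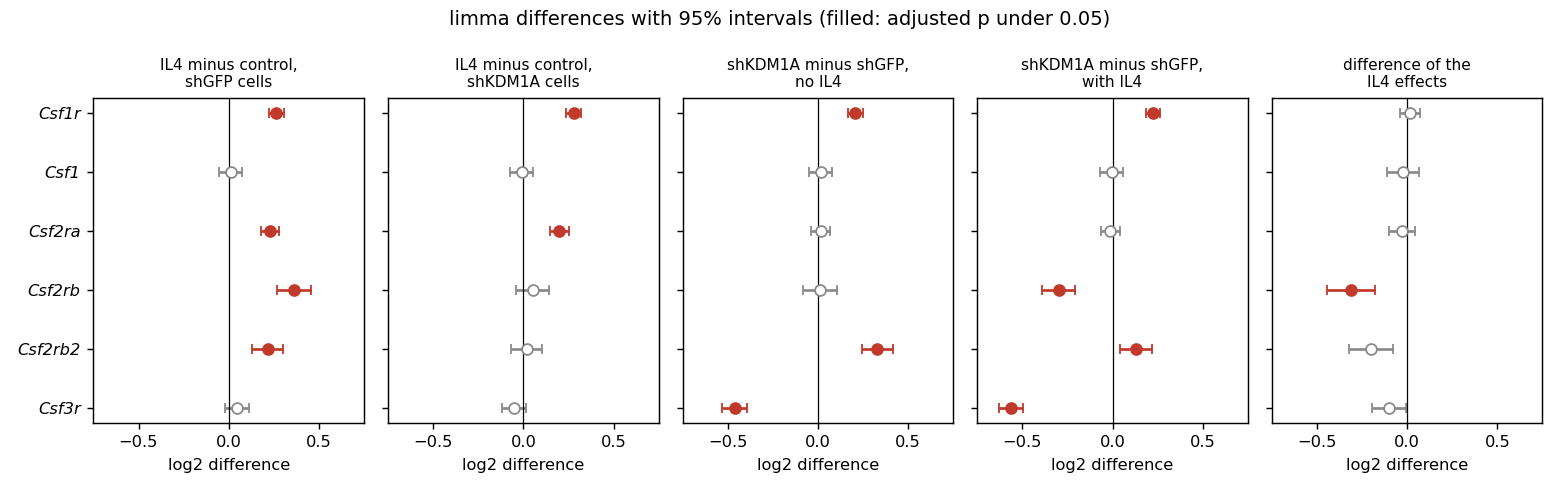
Log2 differences from limma with 95% intervals for the 6 genes in the 4 comparisons and in the difference of the IL4 effects, with filled points for adjusted p under 0.05. Csf2rb is filled in the last panel at -0.31, and Csf3r is filled in both knockdown panels at -0.46 and -0.56. Csf1r in the knockdown panel with IL4, at 0.22, moved to -0.0071 after quantile normalization.

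Upstream sequence was looked at for the members that IL4 raised in shGFP cells. The RefSeq promoter table (GRCm38.p6) matched 4 of the 6 members, Csf1, Csf2ra, Csf2rb2 and Csf3r, each with 1 start, and the 250 bases before that start were searched. The motifs were TTCNNNGAA, the core bound by STAT factors, the same core with 4 bases between TTC and GAA, the spacing preferred by the IL4-activated factor STAT6, and GAGGAA, the core bound by PU.1, on both strands. Over all 32851 promoters of the same length, 7.02%, 5.85% and 23.3% held them. The spacing of 4 bases was in none of the 4 promoters. Csf2rb2 held TTCNNNGAA with its first base 15 bases before the start and GAGGAA on the other strand 167 bases before it. Csf2ra held GAGGAA at 14 and at 8 bases before the start, Csf3r held it at 86, and Csf1 held no match. Matches are described as letters only. Csf2ra (chr19:61228419-61228668, -) and Csf2rb2 (chr15:78305722-78305971, -) are printed 5′ to 3′ on the gene's strand, with matches in capitals. They are the members searched that rose with IL4 in shGFP cells.
Csf2ra: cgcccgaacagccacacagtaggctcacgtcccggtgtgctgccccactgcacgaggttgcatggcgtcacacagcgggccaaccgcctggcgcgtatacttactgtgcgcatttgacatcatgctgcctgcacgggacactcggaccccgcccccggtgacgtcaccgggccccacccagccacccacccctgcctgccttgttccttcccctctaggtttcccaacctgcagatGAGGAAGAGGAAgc
Csf2rb2: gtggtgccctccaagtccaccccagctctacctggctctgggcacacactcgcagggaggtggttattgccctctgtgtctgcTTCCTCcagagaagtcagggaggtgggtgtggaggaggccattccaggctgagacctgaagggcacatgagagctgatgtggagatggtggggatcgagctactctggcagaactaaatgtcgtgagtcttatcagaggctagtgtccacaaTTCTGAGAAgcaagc

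Genes that act downstream of CSF1R were counted from a list of 19 (adaptors, kinases, phosphatases and the sheddase Adam17), all of which passed the filter. IL4 changed 12 in shGFP cells, 6 higher and 6 lower, and 13 in shKDM1A cells, 5 higher and 8 lower. Over all tested genes 26.9% and 27.1% were called. The knockdown changed 10 without IL4, 4 higher and 6 lower, and 13 with IL4, 5 higher and 8 lower, beside 38.2% and 40.7% of all tested genes. The largest called changes for IL4 in shGFP cells were Cbl, the ubiquitin ligase that ends CSF1R signalling, at 0.38 (SE 0.095), Adam17, which sheds CSF1R from the surface, at -0.30 (SE 0.025), and Inpp5d, the inositol phosphatase SHIP1, at 0.30 (SE 0.020). In shKDM1A cells they were Adam17 at -0.32, Inpp5d at 0.31 and Fyn, a Src-family kinase, at 0.29. For the knockdown, called changes included the kinase Syk at -0.40 and Cbl at 0.26 without IL4, a call lost without shGFP control replicate 1, 2 or 4 or shKDM1A control replicate 2, 3 or 4, and Syk at -0.48 and the PI3-kinase subunit Pik3r1 at -0.25 with IL4. The IL4 effects differed between lines for Dok2 at 0.18 and Gab2 at -0.31, both adaptors, beside 6.13% of all tested genes called. The list's median was between -0.07 and -0.0026 in each comparison.

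For JAK-STAT signalling of the GM-CSF and G-CSF receptors, 13 of 14 listed genes passed the filter. In shGFP cells IL4 raised 3 and lowered 3, beside 13.1% of all tested genes called higher and 13.7% lower, led by Socs1, a feedback inhibitor of JAK kinases, at 0.70 (SE 0.053), Jak2, the kinase that the beta chain carries, at 0.55 (SE 0.048), and Cish, another feedback inhibitor, at 0.38 (SE 0.020). In shKDM1A cells 4 rose and 4 fell, beside 13.6% and 13.5% of all tested genes, led by Jak2 at 0.41, Socs1 at 0.37 and Pim1, a STAT5 target kinase, at -0.20. The differences of these effects, called in 6.13% of all tested genes, were called for Socs1, at -0.33 (SE 0.074, limma adjusted p = 0.015, but 0.062 without a filter on low values), and for Cish, at -0.19 (SE 0.028, limma adjusted p = 0.00078). The knockdown raised 6 and lowered 2 without IL4, where 19.7% of all tested genes were called higher and 18.4% lower, and raised 3 and lowered 4 with IL4, where 20.9% and 19.8% were. Called changes included Pim1 at 0.25 and Tyk2 at 0.20 without IL4, and Pim1 at 0.22 and Cish at -0.18 with IL4. The list's median was between -0.02 and 0.06 over the 5 comparisons.

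All 10 transcription factors listed for the receptor genes passed the filter. IL4 raised 3 and lowered 3 in each line, beside 13.1% and 13.7% of all tested genes in shGFP and 13.6% and 13.5% in shKDM1A cells. Ets2 fell by 0.67 in shGFP and 0.56 in shKDM1A cells, and Irf8 fell by 0.36 and 0.31. The knockdown raised 5 and lowered 2 without IL4 (19.7% and 18.4% of all tested genes) and raised 6 and lowered 1 with IL4 (20.9% and 19.8%), led by Cebpa, a factor of the granulocyte and monocyte lineages, at 0.43 and 0.53. Next were Klf4 at 0.40 and Irf8 at 0.27 without IL4, and Irf8 at 0.33 and Klf4 at 0.32 with IL4. Spi1, which encodes PU.1, the factor best known for activating Csf1r, was outside the 3 largest and was chosen for that role after its values were seen. Its knockdown effects were 0.11 without IL4 and 0.25 with IL4 (limma adjusted p = 0.0096 and 5.5e-06). For IL4, Spi1 was not called, at -0.06 in shGFP and 0.08 in shKDM1A cells (limma adjusted p = 0.15 and 0.064). In the limma test of the difference of the IL4 effects 0 of the 10 were called, with 4 at an unadjusted p under 0.05, beside 6.13% of all tested genes called, a share at which 0 of 10 says nothing about the list. The list's median was between -0.06 and 0.21 over the 5 comparisons.

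Genes with the most similar pattern to each member were found by the root mean square difference of centred log2 values over the 16 libraries, as a description. For Csf1r they were Mxd4 (0.043), Map2k3 (0.045) and Inpp5a (0.047), against a spread of Csf1r about its mean of 0.174. For Csf2ra they were Midn (0.034), Plod3 (0.036) and Ykt6 (0.036), and for Csf2rb Enc1 (0.060), Camsap2 (0.067) and Thrap3 (0.068). Csf2rb2 was closest to Ttc12 (0.056), Trip4 (0.060) and Pnpla7 (0.063), and Csf3r to Syk (0.061), Nid2 (0.064) and Kif21b (0.069). For Csf1 the nearest, Ddx19a (0.027), Lrig1 (0.027) and Ece2 (0.027), lay hardly nearer than a flat line (0.037).

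As checks on the cells, Kdm1a itself had mean log2 values of 11.18 and 11.10 in shGFP cells without and with IL4 and of 10.30 and 10.32 in shKDM1A cells, a level of 0.542 and 0.580 times that of shGFP cells. The Kdm1a span overlaps Luzp1 on the opposite strand and holds the pseudogene Gm12987 on its own strand. Total tags were between 17554721 and 27782568 per library. Of 6 macrophage markers, 5 passed the filter (Adgre1, Cd68, Itgam, Lyz2 and Fcgr1), and Mertk did not. Their summed level not divided by length, mostly Lyz2, was 137019 to 142933 in shGFP control, 101764 to 103482 in shGFP IL4, 162860 to 167268 in shKDM1A control and 145357 to 160562 in shKDM1A IL4 libraries. Single markers did not follow the sum: with IL4, Adgre1 rose by 1.24 in shGFP and 0.90 in shKDM1A cells while Lyz2 fell by 0.53 and 0.12, and for the knockdown without IL4 Fcgr1 fell by 0.45 while Lyz2 rose by 0.26. The osteoclast list (Ctsk, Acp5 and Ocstamp detected, Calcr under the filter) summed to 232 to 244, 277 to 287, 250 to 261 and 279 to 295 in the same order. None of the 4 lymphocyte or 4 fibroblast markers passed the filter, and of 5 neutrophil markers S100a8 alone did, at a mean log2 value of 1.22 to 1.24. For 3 dendritic cell markers, Zbtb46 and Xcr1 passed and the sum stayed between 20.7 and 22.9. Lyz2, and with it the macrophage sum, and the osteoclast sum differed between groups, and their part in the values of the receptor genes was not tested.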

How the data were processed

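RNA-seq of RAW264.7 cells was analysed, 4 groups of 4 libraries grouped by their labels. The ChIP-seq, ATAC-seq, 4C-seq and CUT&Tag samples and the bone marrow-derived macrophage libraries were not analysed here. The authors aligned reads to mm9 (Bowtie2 and HISAT2 are named), counted reads on exons of condensed RefSeq genes on both strands with HOMER, and compared groups with DESeq2. The deposited expression values, 1 per gene and library, are log2 values moderated for low expression and are not counts. The transformation is not named in the sources used here, and decimals are written with commas. As whole reads are not kept, no count model was fitted. The tables also hold the authors' own comparisons (log2 fold change with raw and adjusted p-value), and these columns were not used. For bone marrow-derived macrophages nothing else is held.

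Values were tested with limma 3.58.1 in R 4.3.3 (lmFit with 1 mean per group over the 16 libraries, contrasts, eBayes), on the 12905 genes that reached a value of 1 in 4 or more libraries. Benjamini-Hochberg adjustment ran over all of them per comparison, with a call at an adjusted p under 0.05. The design was written for log2 values per library, and no pseudocount was needed. Folds are 2 raised to the log2 difference and understate changes of low genes. The 8488 genes listed at 0 in every library were removed by the filter. The authors' lengths per transcript gave levels per kb. The limma step was tested on simulated data. Transcripts were aligned with Biopython 1.88. No 2 libraries held identical values, and the median absolute log2 difference within groups was 0.0358 to 0.0561. The study describes its experiments in general as done on biological replicates. The labels do not say how the 4 libraries of a group relate to separate cultures, so p-values measure the spread between these libraries, which may in part be technical. Depth was 17554721 to 27782568 tags per library.

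Named were all members, Kdm1a, per pathway list and comparison up to 3 called genes with the largest log2 difference, and the 3 genes most like each member. Some listed genes that the rule names are not reported here. The members and lists were chosen with earlier results of these data known. Alternatives were no filter, a filter of at least 5, the compared groups alone, a replicate block, quantile normalization, median centring, a prior variance with a trend, an exact permutation test, an absolute log2 difference over 0.5 and leaving out each library.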

Additional observations from a re-analysis of the deposited data

Results flagged for a closer look

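The Csf1r value of shKDM1A IL4 replicate 1 was 15.41 on the log2 scale, and its gap to the nearest of the other 3 libraries was 0.939 of the group's range, above Dixon's 95% critical value. Chance alone would flag about 1 in 20 of such groups, and 24 were examined (6 genes in 4 groups). Over all tested genes the median absolute log2 distance of that library from the mean of the others in its group was 0.043, against 0.040 to 0.041 for the other shKDM1A IL4 libraries and 0.029 to 0.040 for the libraries of the other groups.

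The IL4 effect on Csf2rb differed between shKDM1A and shGFP cells by -0.31 on the log2 scale in the test of that difference (limma adjusted p = 0.0078), with all 4 shGFP IL4 libraries above all 4 shGFP control libraries and overlapping groups in shKDM1A cells. Over the other alternatives than the limit on the difference, which left its adjusted p as it was, the adjusted p was between 0.0024 and 0.036.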

How the results depend on the processing

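Of 565 alternative values of the members, 522 kept direction and side of the threshold, 18 fell below it, 5 rose above it and 20 changed sign. Those of Csf1r aside, the values that changed sign were called neither before nor after. They were Csf2ra for the knockdown without IL4 (-0.0026 after quantile normalization, -0.0003 to 0.0332 with 1 library left out) and with IL4 (0.0005 with median centring and without shKDM1A IL4 replicate 1), and, with 1 library left out, Csf2rb for the knockdown without IL4 (-0.0078 to 0.0435) and Csf2rb2 for IL4 in shKDM1A cells (-0.0044 to 0.0481). The rest were Csf1, at 0.0000 for IL4 in shKDM1A cells and 0.0050 for the knockdown with IL4 after median centring (0.0049 also without shKDM1A IL4 replicate 1). With 1 library left out Csf1 ranged from -0.0020 to 0.0269 and from -0.0298 to 0.0107 for IL4, from -0.0053 to 0.0351 and from -0.0215 to 0.0070 for the knockdown, and from -0.0401 to 0.0003 for the difference. With an added limit of 0.5 on the absolute log2 difference, the number of members called was 0 for both IL4 comparisons, 0 for the knockdown without IL4, 1 (Csf3r) with IL4 and 0 for the difference of the IL4 effects, because their differences are smaller. At an unadjusted p under 0.05 in limma, 4, 2, 3, 4 and 3 members passed in the same order. Below this limit lay Csf1r at 0.26, Csf2ra at 0.23, Csf2rb at 0.36 and Csf2rb2 at 0.22 for IL4 in shGFP cells, and Csf1r at 0.28 and Csf2ra at 0.20 in shKDM1A cells. Also below it lay Csf1r at 0.21, Csf2rb2 at 0.33 and Csf3r at -0.46 for the knockdown without IL4, Csf1r at 0.22, Csf2rb at -0.30 and Csf2rb2 at 0.13 with IL4, and Csf2rb at -0.31 for the difference. Over all genes, this limit left 174 of 3466 calls for IL4 in shGFP and 141 of 3497 in shKDM1A cells, 337 of 4927 for the knockdown without and 319 of 5255 with IL4, and 17 of 791 for the difference.

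Over all genes, the share of knockdown calls that were higher went from 51.7% to 43.2% without IL4 and from 51.3% to 45.0% with IL4 after quantile normalization, so that lower calls were then the more numerous. With median centring that share was 51.8% without IL4 and 56.7% with IL4. Median centring also moved the share from 50.1% to 56.5% for IL4 in shKDM1A cells and from 58.0% to 66.2% for the difference of the IL4 effects. After quantile normalization the knockdown effect on Csf1r with IL4 reversed to -0.0071 and the difference of its IL4 effects to -0.1642, and 2 members, Csf1r and Csf2rb, were then called for the difference. The cause was not tested. The knockdown effect on Csf2rb2 with IL4, 0.13, was not called without a filter (adjusted p = 0.057) or by the exact permutation test (p = 0.057), and with 1 library left out ranged from 0.10 to 0.16, losing its call without shGFP IL4 replicate 1, shKDM1A IL4 replicate 2 or replicate 3. The difference of the IL4 effects on Csf2rb2, -0.20, was called with a filter of at least 5 (adjusted p = 0.043), where 2 members were called and fewer genes were tested. With 1 library left out it ranged from -0.24 to -0.17, and the number of members called for the difference from 1 to 2. Without a filter, 431 genes were called for the difference, where more genes were tested. Leaving out 1 library gave 530 to 1104.

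Same-numbered libraries of different groups had correlations of their deviations from -0.34 to 0.27, with 3 of 24 over 0.1, so the numbers were not taken as pairing the libraries. A library correlated best with its own number in 22 of 48 cases, where numbers that carry nothing would give about 12, which is a hint from the data at some pairing and not from the design. With the replicate block 2 members were called for the difference of the IL4 effects, since Csf2rb2, at -0.20, had an adjusted p of 0.040. The members called in the other comparisons numbered 4, 2, 3 and 4 as without the block. The alternatives chosen after seeing the data left out shKDM1A IL4 replicate 1, alone for the IL4 effect in shGFP cells and with median centring for the comparisons it enters. With median centring the difference for Csf2rb was then -0.26. The order of the genes by level was the same in 4 of 4 groups when not divided by length. Depth limits what could be seen of Csf1, whose values are low and moderated.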
